A study of Sus scrofa with 70 samples.

Results

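The genes described here are those that the deposited pig annotation names WFDC, together with EPPIN and SLPI. These are 7 of the 42873 genes of that annotation, namely WFDC1, WFDC2, WFDC5, WFDC8, WFDC10A, EPPIN and SLPI. RNA came from boars of the Banna mini-pig inbred line (BMI) and the Diannan small-ear pig (DSE). The organs were the testis (Tes), the epididymis (Epi) and 3 accessory glands, of which VG is the vesicular gland, PG the prostate and BG the bulbourethral gland. All boars were adult, 12 months old and without a named treatment. RNA-seq was performed on 30 libraries, 3 for each breed and gland, and Iso-seq, which reads whole transcripts, on 10 libraries, 1 for each breed and gland. Levels are given as TPM, a length-corrected share of the transcripts in a library, summed over the transcripts of a gene. TPM carry no read counts. The authors state the total reads of each RNA-seq library, but not the reads behind a single value. The sources used here do not say whether the 3 libraries of a group came from separate boars, so p-values measure the spread between these libraries.

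WFDC genes encode small secreted proteins with the whey acidic protein (WAP) domain, a fold held together by disulfide bonds between conserved cysteines. Several members inhibit serine proteases, and SLPI, the secretory leukocyte protease inhibitor, blocks neutrophil elastase and cathepsin G. EPPIN joins a WAP domain to a Kunitz-type inhibitor domain and coats the sperm surface, and WFDC2 was first described in the human epididymis. In mammals most of these genes lie in one cluster, beside the genes of elafin and of the seminal vesicle proteins.

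To show what the members share, the WAP core was searched in the coding sequences of the annotation. The pattern had 6 cysteines with 5 residues between the first and the second, 5 before an adjacent pair, 3 to 5 after that pair and 3 before the last. It was present in 35 of 20970 genes with a coding sequence (0.167%), among them all 7 members, and SLPI, WFDC5 and WFDC8 held it at 2 places. The Kunitz family signature was found in 22 genes (0.105%), among them EPPIN and WFDC8. Of the members whose highest mean was in Epi or BG, the cores of all but WFDC8 are printed, with those of a pair of unnamed neighbours, because these neighbours lie close to EPPIN and WFDC10A and showed the same gland. All were read from the Sscrofa11.1 genome, 5′ to 3′ on the coding strand, with the cysteine codons in capitals.
WFDC10A, chr17:47901146-47901211, + strand: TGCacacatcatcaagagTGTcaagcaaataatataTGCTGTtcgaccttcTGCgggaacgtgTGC
ENSSSCG00000040753, chr17:47886700-47886765, - strand: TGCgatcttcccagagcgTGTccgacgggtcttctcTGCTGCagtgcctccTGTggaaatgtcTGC
EPPIN, chr17:47857368-47857433, - strand: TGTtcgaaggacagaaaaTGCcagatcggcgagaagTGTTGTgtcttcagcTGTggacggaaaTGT
ENSSSCG00000039858, chr17:47846909-47846974, - strand: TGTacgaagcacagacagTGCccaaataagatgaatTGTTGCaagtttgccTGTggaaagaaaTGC
WFDC2, chr17:47817238-47817303, + strand: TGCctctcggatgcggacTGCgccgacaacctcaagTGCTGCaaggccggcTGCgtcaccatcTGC
SLPI, first core, chr17:47597225-47597290, - strand: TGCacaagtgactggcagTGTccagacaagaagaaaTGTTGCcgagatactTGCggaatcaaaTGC

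Each core is 66 bases long and lies within 1 exon. Outside the cysteine codons the sequences diverge. Over the 15 pairs of these 6 cores, cysteine codons included, identical positions ranged from 26 of 66 (39.4%, EPPIN and WFDC10A) to 44 of 66 (66.7%, SLPI and ENSSSCG00000039858). The match in these windows is a description of sequence only.

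The members' places on the map bear on how their levels are read. WFDC5 (ENSSSCG00000007384), SLPI (ENSSSCG00000039573), WFDC2 (ENSSSCG00000033003), EPPIN (ENSSSCG00000033572), WFDC8 (ENSSSCG00000007407) and WFDC10A (ENSSSCG00000029121) lie in this order within 401 kb of chromosome 17. EPPIN and WFDC8 are 3.17 kb apart, and WFDC8 and WFDC10A 11.5 kb. WFDC1 (ENSSSCG00000023837) lies on chromosome 6, at chr6:4333731-4399237 on the - strand.

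The labels of Tes and Epi were checked with marker lists, which hold no markers meant to tell VG, PG and BG apart. The 5 spermatid markers summed to between 23155 and 100566 TPM in Tes and to at most 931 TPM elsewhere. The 6 measured of 7 epididymal epithelium markers summed to between 1484 and 27407 TPM in Epi and to at most 30.6 TPM elsewhere. The 5 markers of secretory epithelium lay between 1017 and 2455 TPM in Epi, VG, PG and BG and between 13.7 and 41.8 TPM in Tes. Libraries of one group were not alike throughout. DSE Tes replicate 2 had the lowest spermatid sum (23155 TPM, against at least 66530 in the other 5) and the highest Leydig cell sum (63338 TPM, against at most 32256). In Epi, LCN8, a lipocalin of the epididymal epithelium, was at 9677 TPM in BMI replicate 2 and between 1.51 and 21.2 TPM in the other 5. SPINT4, another marker of that list, was at 7070 TPM in BMI replicate 2, at 12338 TPM in DSE replicate 3 and at most 15.1 TPM in the remaining Epi libraries. CRISP1, a secreted sperm-coating protein, was at 21.3 TPM in DSE Epi replicate 1 and between 1100 and 2759 TPM in the other 5, and the smooth muscle sum ranged from 888 to 13982 TPM. Of all RNA-seq libraries, DSE Epi replicate 1 had the lowest median transcript integrity, a sign of RNA quality, in the authors' report. The labels name the epididymis without a region.

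WFDC5 has no row in the TPM table used here and no full-length isoform, and is named without a level. The other 6 members had a level of at least 1 TPM in at least 3 libraries and entered the tests with 19796 genes. WFDC8 reached 1 TPM in 6 libraries only, all from Epi, so that it entered the fits only through the gland in which it is high. That filter fixed the direction of its difference from other glands, so WFDC8 is described by its values and left out of the counts of called members. The other 5 reached the filter without their highest gland. Each gland was compared with the mean of the other 4 with limma on log2(TPM + 1), and a call required a log2 difference of at least 1 together with p below 0.05 after Benjamini-Hochberg adjustment. These differences understate the change of genes with low TPM. The glands shifted as a whole on this scale: the median difference over all genes was 0.31 in Tes, 0.25 in Epi, -0.69 in VG, -0.28 in PG and -0.05 in BG. When libraries were scaled by size factors, these medians were 0.13, -0.14, -0.20, -0.20 and -0.20. Genes called higher then fell from 2989 to 1690 in Epi and rose from 584 to 1448 in VG.

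**Figure D1:**
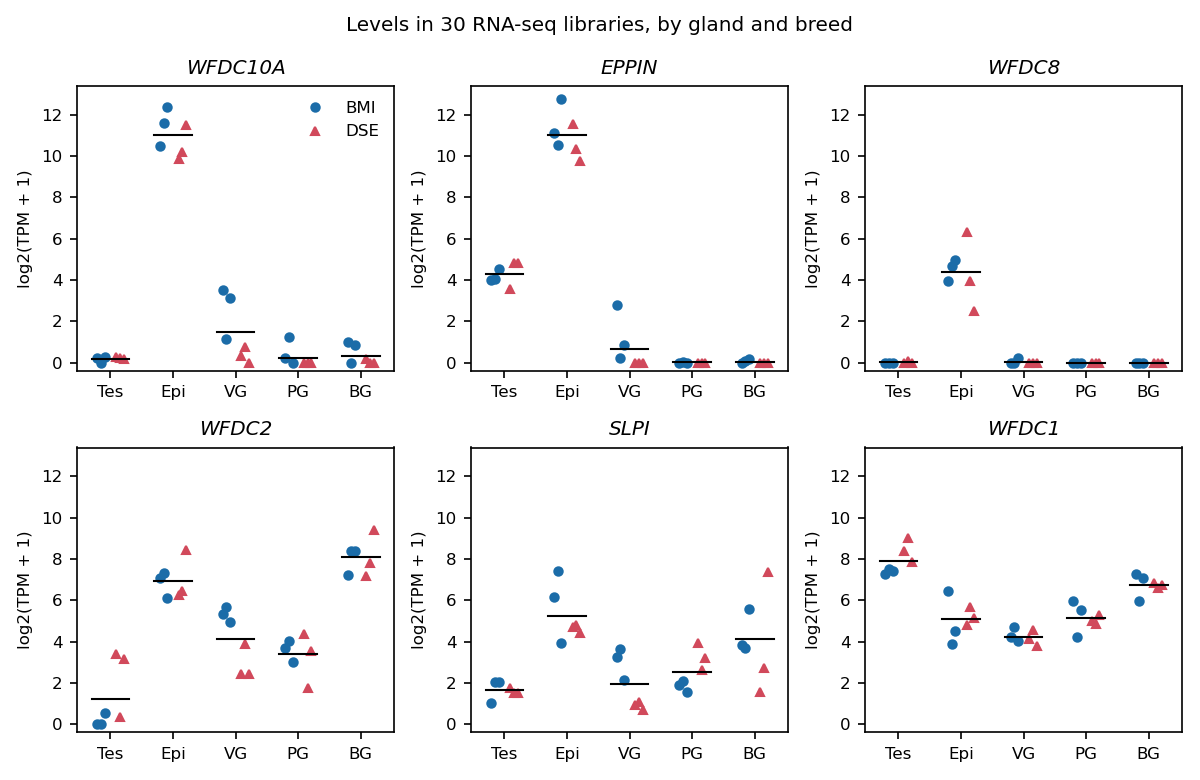
Level of each of the 6 measured members in the 30 RNA-seq libraries. The vertical axis is log2(TPM + 1), points are libraries (circles BMI, triangles DSE) and the black line is the mean of the 6 libraries of a gland; WFDC10A, EPPIN and WFDC8 stand highest in Epi, WFDC2 in BG and WFDC1 in Tes.

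Epi held the highest levels of WFDC10A, EPPIN and WFDC8, which lie near each other on chromosome 17. Of the 5 members counted, WFDC10A, EPPIN, WFDC2 and SLPI were called higher in Epi than in the other 4 glands, and 15.1% of all genes were called higher. For WFDC10A and EPPIN all 6 Epi libraries lay above the 24 others, which held for 3.02% of all genes. In bulk tissue, more cells of a type and more RNA per cell cannot be told apart.

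WFDC10A was measured in Epi at 1418, 3142 and 5400 TPM in BMI and at 928, 1197 and 2942 TPM in DSE. In VG it was at 10.6, 1.22 and 7.74 TPM in BMI and at 0.267, 0.673 and 0 TPM in DSE. In Tes, PG and BG no library exceeded 1.35 TPM. Epi and VG did not overlap, with 928 TPM as the lowest Epi value and 10.6 TPM as the highest elsewhere. The difference of Epi from the other 4 glands was 10.45 ± 0.28 (SE) on the log2(TPM + 1) scale (adjusted p = 3.2e-19). In the order of levels Epi came first and VG second, and both steps were called (Epi minus VG 9.53 ± 0.35, adjusted p = 3.8e-16, 34.5% of all genes called, and VG minus BG 1.14 ± 0.35, adjusted p = 0.0093, 4.11% called). The step from VG to BG fell to 0.91 without BMI VG replicate 1, to 0.99 without BMI BG replicate 2 and to 0.30 in DSE alone (adjusted p = 0.57), and its call was lost each time. BG, PG and Tes followed, and neighbours among them did not differ beyond their spread (adjusted p = 0.99 and 0.92).

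The annotated WFDC10A carries an uncertainty of its own. Its first exon (chr17:47888613-47888832) shares 195 bases with an exon of ENSSSCG00000040753 on the opposite strand, which RefSeq names WFDC10AL and which reached 62673 TPM in Epi. Of the 683 stretches of 31 bases in the WFDC10A transcript, 168 (24.6%) occur in that gene, on either strand, and in no other gene. Judged by its name alone, the library kit does not mark strand. If so, reads of the shared bases cannot be told apart. In the Iso-seq data, the 6 full-length reads of WFDC10A, 2 from BMI Epi and 4 from DSE Epi, belonged to 1 isoform of 481 bases and 2 exons. It started 11378 bases after the annotated start, past the first exon. RefSeq places a gene without a WFDC name over these exons.

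EPPIN, the sperm-coating inhibitor, was measured in Epi at 2219, 1483 and 6966 TPM in BMI and at 3010, 1296 and 870 TPM in DSE. In Tes it was at 14.8, 15.8 and 22.6 TPM in BMI and at 10.7, 27.6 and 27.8 TPM in DSE. In VG the BMI libraries had 5.87, 0.170 and 0.795 TPM and the DSE libraries were listed at 0. PG and BG stayed at or below 0.118 TPM. Tes thus formed a second level, above every library of the 3 accessory glands and below every Epi library. Epi exceeded Tes by 6.71 ± 0.37 (adjusted p = 3.0e-14, with 21.6% of all genes called that way), and Tes exceeded VG by 3.67 ± 0.37 (adjusted p = 2.5e-09, with 44.9% called). Of the 31-base stretches of its Ensembl transcript, 139 of 1149 (12.1%) also occur in transcripts of other genes. VG, BG and PG did not differ beyond their spread from one to the next (adjusted p = 0.19 and 1), although with a pseudocount of 0.1 VG was called higher than BG (1.46, adjusted p = 0.018).

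WFDC8, which joins WAP cores with a Kunitz signature, was measured in Epi at 14.4, 24.7 and 30.4 TPM in BMI and at 78.9, 14.3 and 4.71 TPM in DSE. Elsewhere it was above 0 in 2 libraries, DSE Tes replicate 2 (0.0503 TPM) and BMI VG replicate 3 (0.161 TPM). Its mean in Epi was 27.9 TPM, against 2641 TPM for the adjoining EPPIN. All 6 Epi libraries lay above the 24 others, a difference given here without a test. Of its 31-base stretches 146 of 1697 (8.60%) also occur elsewhere in the transcripts.

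The Epi libraries did not rank the members alike. BMI replicate 3 was the highest for WFDC10A and EPPIN, BMI replicate 2 for SLPI, DSE replicate 1 for WFDC8 and DSE replicate 3 for WFDC2. The ratio of the highest to the lowest of the 6 libraries was 5.08 for WFDC2, 5.82 for WFDC10A, 11.9 for SLPI and 16.7 for WFDC8. LCN8, SPINT4, CRISP1 and the smooth muscle sum varied between the same libraries, and their part in these ratios was not tested.

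WFDC2 had its highest means in BG and Epi, with lower levels in VG and PG and the lowest in Tes. In BG it was at 151, 338 and 337 TPM in BMI and at 145, 222 and 673 TPM in DSE. In Epi it was at 136, 161 and 67.9 TPM in BMI and at 76.4, 86.8 and 345 TPM in DSE. The libraries of BG and Epi overlapped. In VG the range was 4.42 to 49.3 TPM, in PG 2.34 to 19.9 TPM, and in Tes 0 to 9.46 TPM. BG was called higher than the other 4 glands by 4.15 ± 0.41 (adjusted p = 1.4e-08) and Epi by 2.75 ± 0.41 (adjusted p = 5.6e-06). The difference of BG from Epi was 1.12, with a 95% interval of 0.04 to 2.20, and did not pass (adjusted p = 0.098). Without DSE Epi replicate 3 it was called (1.47, adjusted p = 0.032), as it was under size factors (1.35) and in BMI alone (1.17). Epi exceeded VG by 2.84 ± 0.52 (adjusted p = 6.4e-05) and PG exceeded Tes by 2.16 ± 0.52 (adjusted p = 0.00076, with 12.4% of all genes called that way), while VG and PG did not differ beyond their spread (adjusted p = 0.33). In DSE alone the step from PG to Tes was not called (0.93, adjusted p = 0.42), and in BMI alone VG was called higher than PG (1.74, adjusted p = 0.022). In Tes the spread lay within one breed, with DSE replicates 1 and 3 at 9.46 and 7.81 TPM and the other 4 libraries at or below 0.452 TPM.

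SLPI, the leukocyte protease inhibitor, had its highest means in Epi and BG and varied widely between the libraries of both. In Epi it was at 71.6, 171 and 14.3 TPM in BMI and at 25.1, 26.6 and 20.3 TPM in DSE. In BG it was at 13.1, 12.0 and 46.9 TPM in BMI and at 1.97, 5.61 and 163 TPM in DSE, a ratio of 83.0 between the highest and the lowest. The libraries of Epi and BG overlapped, although only replicate 3 of each breed in BG lay above the lowest Epi library (14.3 TPM). Tes stayed between 1.04 and 3.08 TPM. Epi was called higher than the other 4 glands by 2.68 ± 0.52 (adjusted p = 0.00013). BG was called higher by 1.28 ± 0.52 (adjusted p = 0.041), a call close to the threshold that was lost on leaving out any of 7 of the 30 libraries. Without DSE BG replicate 3 the difference was 0.41 (adjusted p = 0.37) and without BMI BG replicate 3 it was 0.98 (adjusted p = 0.15). Without BMI Tes replicate 1, BMI VG replicate 3, DSE PG replicate 2, DSE Tes replicate 2 or DSE Tes replicate 3 the adjusted p was between 0.0503 and 0.0533. Between neighbours in the order Epi, BG, PG, VG and Tes none of the steps passed, the first with 1.12 and a 95% interval of -0.24 to 2.47. The first was called without DSE BG replicate 3 (1.98, adjusted p = 0.0013) and the second without DSE BG replicate 1 (2.16, adjusted p = 0.017) and in BMI alone (2.53, adjusted p = 0.044).

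DSE BG replicate 3, the library with 163 TPM of SLPI, also had the highest skeletal muscle sum of BG (938 TPM, against 0.899 to 278 in the other 5). Its leukocyte sum was 285 TPM. That sum ranged from 22.5 to 294 TPM over BG, and BMI replicate 2, at 294 TPM, had 12.0 TPM of SLPI. Most of it was JCHAIN, a gene of antibody-secreting cells. Of the neutrophil and monocyte markers, LYZ was between 149 and 317 TPM in BG while MPO was at 0 in all 6 libraries. The part of these cells in the SLPI level was not tested.

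WFDC1, the member outside the cluster, was first isolated from prostate stroma. It was highest in Tes, at 154, 182 and 172 TPM in BMI and at 333, 511 and 232 TPM in DSE. In BG it was at 154, 62.2 and 133 TPM in BMI and at 113, 96.9 and 106 TPM in DSE. The ranges all but met, since the lowest Tes library was at 154.4 TPM and the highest BG library at 154.2 TPM. Epi ranged from 13.9 to 87.2 TPM, PG from 17.6 to 60.6 TPM and VG from 12.6 to 25.0 TPM. WFDC1 was thus the only measured member above 1 TPM in all 30 libraries. Tes exceeded the other 4 glands by 2.61 ± 0.27 (adjusted p = 4.2e-09) and BG alone by 1.16 ± 0.34 (adjusted p = 0.0045, with 33.3% of all genes called that way). The latter fell to 0.96 without BMI BG replicate 2 and to 0.63 in BMI alone, and lost its call. BG exceeded PG by 1.61 ± 0.34 (adjusted p = 0.0014, with 5.63% called), a call lost in BMI alone (1.55, adjusted p = 0.11). PG and Epi (0.06, adjusted p = 0.93) and Epi and VG (0.84, adjusted p = 0.036, below the required size of 1) were not called apart. The latter pair was called without BMI Epi replicate 2 (1.11) and in DSE alone (1.06, adjusted p = 0.012).

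**Figure D2:**
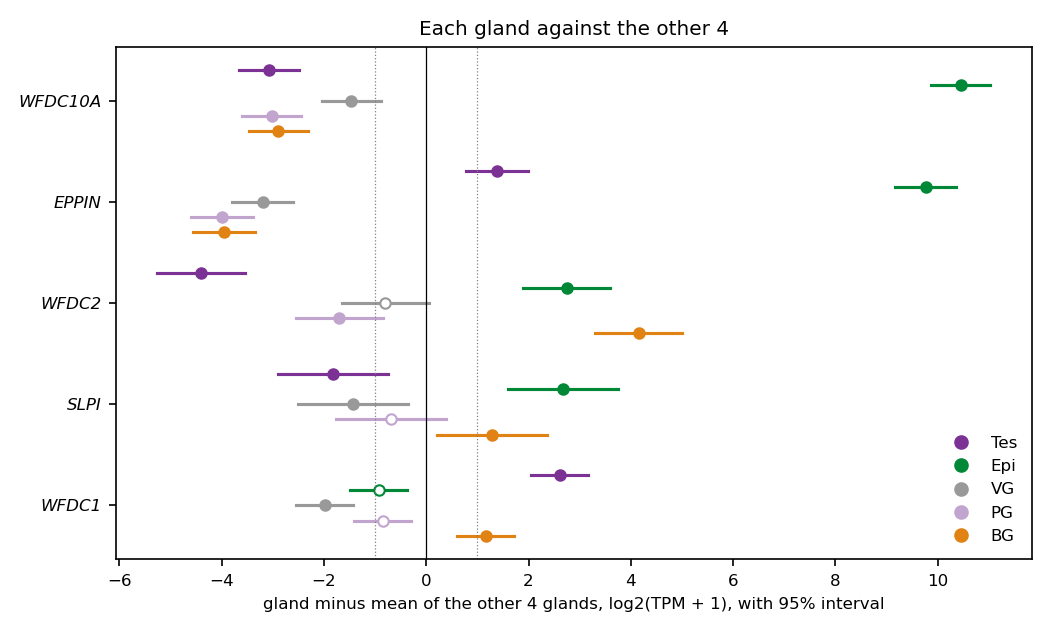
Difference of each gland from the mean of the other 4 for the 5 members whose entry into the fits did not rest on 1 gland, on the log2(TPM + 1) scale with 95% intervals (horizontal axis). Filled points were called and open points were not; dotted lines mark the required size of 1. WFDC10A and EPPIN show the widest gap, with Epi at 10.45 and 9.76.

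The remaining calls of the glands were as follows. In Tes, WFDC1 and EPPIN were called higher (34.6% of all genes) and WFDC2, WFDC10A and SLPI lower (12.7%). The EPPIN call in Tes, 1.38 ± 0.29 (adjusted p = 0.00017), fell below the required size over Ensembl transcripts alone (0.81). In BG, WFDC2, SLPI and WFDC1 were called higher (8.45%) and EPPIN and WFDC10A lower (12.0%). Under size-factor scaling WFDC1 in BG fell below the required size (0.95). None of the members was called higher in VG (2.95%) or PG (3.69%). In VG, EPPIN, WFDC1, WFDC10A and SLPI were called lower (30.1% of all genes), and in PG EPPIN, WFDC10A and WFDC2 were (12.8%). For WFDC10A a lower call of Tes or of an accessory gland rests on the high Epi level within the other 4 glands. For EPPIN in the accessory glands, both Epi (mean 11.01 on the log2(TPM + 1) scale) and Tes (4.31) stood higher within the other 4. When libraries were scaled by size factors, SLPI lost its call in VG and the share of all genes called lower there fell to 12.2%, with the median over all genes moving from -0.69 to -0.20.

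**Figure D3:**
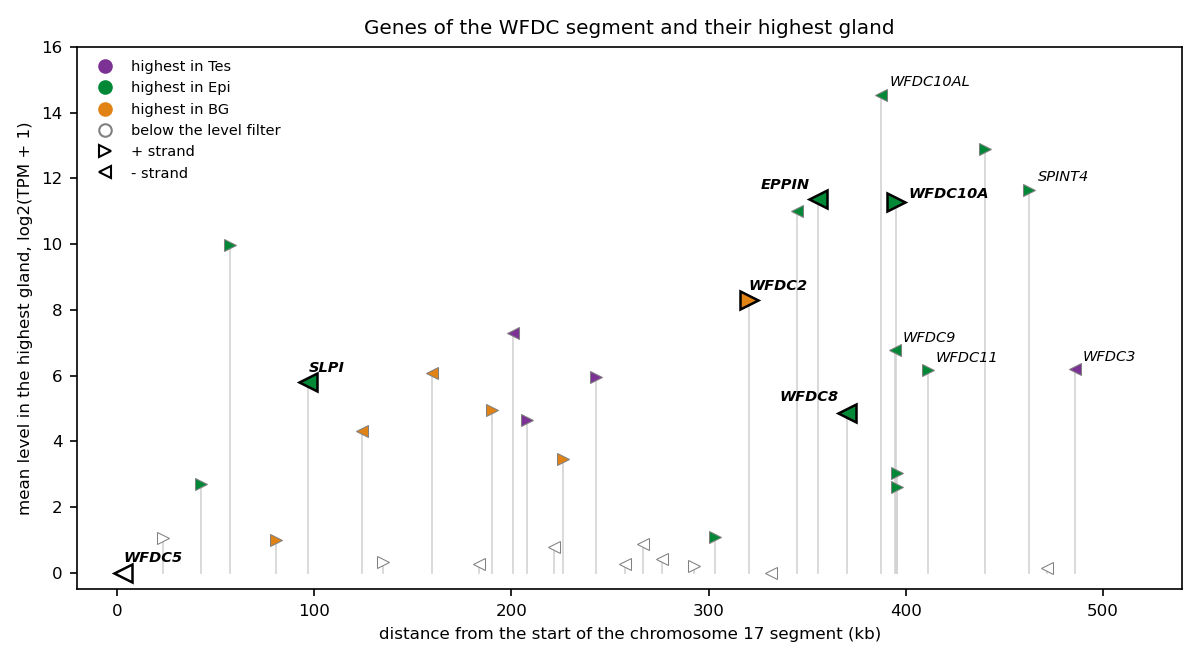
Genes of the chromosome 17 segment by distance from its start (horizontal axis, kb) and mean level in their highest gland (vertical axis, log2(TPM + 1)). Bold names and black outlines are members, triangles point along the strand and colour gives the highest gland; 15 of the 25 genes that passed the level filter are highest in Epi, 6 of which passed without Epi.

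The segment from WFDC5 onward holds 36 genes of the deposited annotation, 25 of which passed the level filter. By mean level, 15 were highest in Epi, 6 in BG, 4 in Tes and none in VG or PG. Over all tested genes 32.5% were highest in Epi, 15.8% in BG and 42.8% in Tes. Only 6 of the 15 reached the filter without Epi, so the count is a description. RefSeq names 4 further WFDC genes at loci without that name in the deposited annotation. These were chosen after their values were seen. ENSSSCG00000040753 (WFDC10AL in RefSeq) was at 23722, 16250 and 62673 TPM in BMI Epi and at 963, 20511 and 19476 TPM in DSE Epi. Its mean was the highest of the segment. ENSSSCG00000051904 (WFDC11) was between 44.1 and 130 TPM in Epi and at most 0.913 TPM elsewhere. An unnamed gene on the strand opposite to WFDC10A (WFDC9), itself overlapped by exons of other genes on the + strand, was between 6.95 and 387 TPM in Epi and listed at 0 in the 24 other libraries. The last 2 reached the filter only through Epi, and no test is given for these 3 genes. ENSSSCG00000007421 (WFDC3) differed from them. It was at 27.8 to 101 TPM in Tes and at most 13.7 TPM elsewhere, with Tes above all other libraries.

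ENSSSCG00000039858 has a WAP core and a Kunitz signature like EPPIN, and RefSeq joins its exons and those of EPPIN in a single gene. In Epi it was at 1775, 2034 and 5537 TPM in BMI and at 61.1, 1156 and 1716 TPM in DSE. DSE replicate 1, which had 61.1 TPM of it and 963 TPM of ENSSSCG00000040753, had the highest WFDC8 (78.9 TPM) and the highest WFDC9 (387 TPM) of the gland. Members of the segment thus differed in opposite directions in that library. It was also the RNA-seq library for which the authors report the lowest median transcript integrity and the largest share of unmapped reads. The part of RNA quality in these values was not tested. In Tes ENSSSCG00000039858 stayed at or below 0.654 TPM, whereas EPPIN was at 10.7 TPM or more.

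Full-length reads were counted for 5 of the 7 members. EPPIN had 222 reads in 7 isoforms, WFDC1 64 reads in 1, WFDC8 41 in 5, WFDC10A 6 in 1 and SLPI 6 in 2. WFDC2 and WFDC5 had no isoform. WFDC2 reached 673 TPM in BG but its annotated transcript is 548 bases long, the shortest of the members, and SLPI has 621 bases and WFDC10A 713. The median isoform of the series was 3316 bases long. Counts of full-length reads are for this reason not set beside TPM between genes of different length. The part of transcript length in the missing reads of WFDC2 was not tested. Library totals ranged from 231413 to 458697 reads, with 1 library per breed and gland and no replicate.

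All reads of WFDC8 and WFDC10A and most of those of EPPIN came from Epi. EPPIN had 170 reads in DSE Epi, 46 in BMI Epi, 4 in DSE Tes and 2 in BMI Tes and none in VG, PG or BG. All 41 reads of WFDC8 came from Epi, 23 from BMI and 18 from DSE. WFDC1 had 39 reads in Tes, 11 in PG, 7 in VG, 4 in Epi and 3 in BG. Outside Tes this order did not follow its TPM, which were higher in BG than in PG, Epi and VG. SLPI had 3 reads in BMI Epi, 1 in DSE Epi and 2 in BMI BG.

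One isoform held most EPPIN reads. PB.9025.2 has the 4 exons of the annotated transcript and a length of 2736 bases, against 1179 annotated, most of the extra length lying past the annotated 3′ end. It took 143 of 170 reads in DSE Epi (84.1%, Wilson 95% interval 77.9 to 88.8%) and 31 of 46 in BMI Epi (67.4%, 53.0 to 79.1%). These intervals cover counting error only. The table marks this isoform as possibly made by template switching of the reverse transcriptase. The second, PB.9025.7, retained an intron and had 10 reads in each breed. Of the 7 isoforms, 5 were predicted targets of nonsense-mediated decay, and they had 36 of 222 reads (16.2%, 11.9 to 21.6%).

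The most read isoform of WFDC8, PB.9026.1, combined annotated splice sites in another way. It had 22 of 41 reads and a predicted protein of 295 residues. PB.9026.3, with the annotated splice junctions, had 10 reads and a predicted protein of 252 residues. For SLPI, 4 of 6 reads retained an intron and 2 matched the annotated transcript.

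The short reads also separate transcripts of a gene. For 2 members with at least 5 TPM in all 12 libraries of their 2 highest glands, the share of TPM in the main transcript was compared by an exact permutation test, two-sided, 6 against 6, with p-values adjusted over both. For EPPIN, ENSSSCT00000037659 held between 73.6 and 87.3% in Epi and between 48.1 and 66.5% in Tes. The libraries of the 2 glands did not overlap. The means were 80.4 ± 4.4% and 61.4 ± 6.8% (SD, n = 6), a difference of 19.1 percentage points (exact p = 0.0022, adjusted 0.0022, the smallest that this design allows). Total EPPIN in Tes was at most 27.8 TPM. Full-length reads of PB.9025.2, 6 of 6 in Tes and 174 of 216 in Epi, gave the opposite sign. The shares are of different transcripts, since PB.9025.2 runs past the annotated 3′ end and was not among the transcripts quantified from short reads. The part of the 3′ end in the difference of TPM shares was not tested. The isoforms PB.9025.4 and PB.9025.5 held 17.2% each of the Tes TPM, against 14.9% and 2.25% in Epi, but had no full-length read in Tes.

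**Figure D4:**
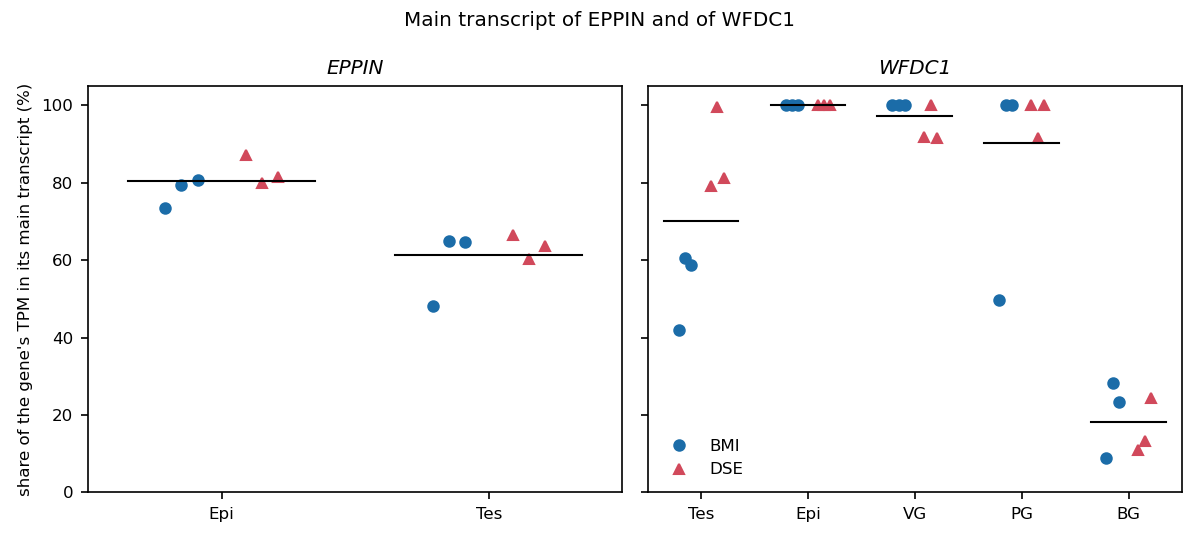
Share of a gene's TPM in its main transcript (vertical axis, %) for EPPIN in Epi and Tes and for WFDC1 in the 5 glands. Points are libraries and black lines are means of 6; for WFDC1 the mean is 70.2% in Tes, 100% in Epi and 18.2% in BG.

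WFDC1 differed most in this respect. Its transcript ENSSSCT00000040268 held 41.9 to 99.7% of the TPM in Tes and 8.81 to 28.3% in BG, without overlap. The means were 70.2 ± 20.5% and 18.2 ± 8.1% (SD, n = 6), a difference of 52.0 points (exact p = 0.0022, adjusted 0.0022). In BG, ENSSSCT00000026718 held 70.7 to 91.2% of the WFDC1 TPM. It was listed at 0 in all libraries of Epi and VG and in 5 of 6 of PG. Per gland, its mean was 90.4 TPM in BG and 55.0 TPM in Tes. In PG it held 50.3% in BMI replicate 1. ENSSSCT00000040268 had a mean of 38.9 TPM in Epi, 17.9 in VG, 31.2 in PG and 18.9 in BG.

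These transcripts share the splice junctions from the third exon on and differ at the 5′ end. ENSSSCT00000040268 has a noncoding first exon of 47 bases (chr6:4365478-4365524) and a second of 259 bases (chr6:4364816-4365074). ENSSSCT00000026718 starts inside that second exon and splits it by an intron of 64 bases. The shares thus rest on the reads of the first exons. The WAP core lies in a shared exon. The only full-length isoform of WFDC1, PB.15210.2, was assigned to ENSSSCT00000040268 and classed as a 3′ fragment, with 7 exons against 8. It started only 77 bases after the annotated start and was longer, with 1598 bases against 1269, so it is not simply a shortened copy. As an incomplete splice match it was not among the transcripts quantified from short reads. No full-length isoform matched ENSSSCT00000026718. In Tes the share also separated the breeds, with 41.9, 60.6 and 58.7% in BMI and 79.1, 99.7 and 81.3% in DSE, a difference that was not tested.

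To compare the breeds, BMI and DSE were fitted within each gland. None of the 5 members other than WFDC8 was called in any gland, and WFDC8 was not called in Epi. Elsewhere WFDC8 was at or near 0 in both breeds, and it is left out of the counts of the other glands. Over all genes, 0.162% were called in Tes, 0.0152% in VG, 0.52% in PG and 0.0% in Epi and in BG. At an unadjusted p below 0.05, limma gave 1 member in Tes, 3 in VG, 1 in PG and none in Epi or BG. Of all 19796 genes, 12.6% in Tes, 15.6% in VG, 26.6% in PG, 2.79% in Epi (553 genes) and 6.60% in BG (1306 genes) were below that value, so that 1 of 5 members in Tes or PG is near the share of all genes. With 3 libraries against 3 an exact permutation test cannot go below 0.1.

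VG was the gland in which most members were apart between the breeds. WFDC2 was at 39.0, 49.3 and 30.0 TPM in BMI VG and at 4.42, 13.6 and 4.42 TPM in DSE VG. SLPI was at 8.65, 11.3 and 3.37 TPM in BMI VG and at 0.891, 1.10 and 0.603 TPM in DSE VG. For these genes and for WFDC10A and EPPIN, 4 of the 5 members, every BMI library lay above every DSE library, and 22.9% of all genes were without overlap in VG. The differences were 2.39 ± 0.48 for WFDC2 (adjusted p = 0.19), 2.12 ± 0.43 for SLPI (adjusted p = 0.19) and 2.24 ± 0.71 for WFDC10A (adjusted p = 0.28). The median over all genes was 0.27. When genes were filtered on the libraries of VG alone, an alternative chosen after seeing the data, WFDC2 (adjusted p = 0.018) and SLPI (adjusted p = 0.024) were called, with 0.882% of 12585 genes. In 1 fit of all 30 libraries WFDC10A was called (adjusted p = 0.034), with 0.535% of all genes.

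The sum of the epididymal markers was 8.30, 2.87 and 4.27 TPM in BMI VG and between 0.508 and 1.33 TPM in DSE VG. ENSSSCG00000040753 was at 53.5, 3.52 and 29.7 TPM in BMI VG and at most 0.371 TPM in DSE VG. Within BMI VG, replicate 2 had the lowest of both but the highest WFDC2 and SLPI, whereas WFDC10A and EPPIN were lowest in it. The secretory epithelium sum was between 1064 and 1423 TPM in BMI VG and between 1017 and 1070 TPM in DSE VG. The part of epididymal RNA in the VG differences was not tested.

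Elsewhere single members stood apart. In PG, SLPI was at 2.68, 3.21 and 1.93 TPM in BMI and at 14.4, 5.16 and 8.23 TPM in DSE, lower in BMI by a log2 difference of -1.42 ± 0.38 (adjusted p = 0.11), where 31.5% of genes were without overlap. The neutrophil and monocyte sum was between 1.33 and 3.15 TPM in BMI PG and between 12.1 and 14.4 TPM in DSE PG. ELANE gave at most 0.53 TPM of it, and the sum is not broken down further here. The part of this sum in the SLPI level was not tested. In Tes, WFDC1 was lower in BMI by -1.01 ± 0.30 (adjusted p = 0.33), where 22.9% of genes were without overlap. The Leydig cell sum was between 18526 and 21729 TPM in BMI Tes and between 23887 and 63338 TPM in DSE Tes, highest in DSE replicate 2, which also had the highest WFDC1. Its part was not tested. The 95% intervals of the Epi differences reached from -0.79 to 2.71 for WFDC10A and from -1.06 to 2.89 for EPPIN, so that differences of several fold were not detectable there.

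**Figure D5:**
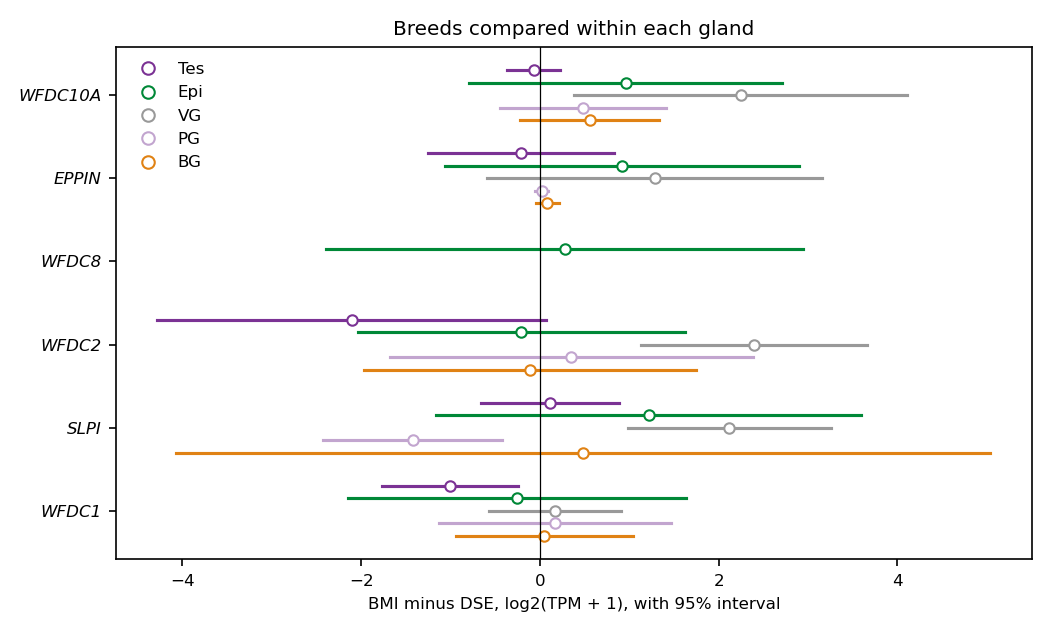
BMI minus DSE within each gland for the 6 measured members, WFDC8 in Epi alone, on the log2(TPM + 1) scale with 95% intervals (horizontal axis). None was called; in VG the intervals of WFDC2, SLPI and WFDC10A lie above 0, and those of SLPI in PG and WFDC1 in Tes lie below 0.

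Whether the breed difference varied with the gland was tested by a moderated F test over the 5 glands. No member passed, with WFDC2 (adjusted p = 0.13) and WFDC10A (adjusted p = 0.32) at unadjusted p below 0.05, and 2.6% of all genes passing.

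Other inhibitors with WAP or Kunitz domains were read from a list of 11 genes, 9 of which were in the TPM table and 6 were tested. SPINT4 reached the filter only through Epi and WFIKKN1 only through Tes. The other 4, SPINT1, SPINT2, TFPI2 and WFIKKN2, were called higher in Epi, where 15.1% of all genes were. TFPI2, a Kunitz inhibitor of the extracellular matrix, only just reached the required size in Epi (1.002 ± 0.37, adjusted p = 0.023), and had its highest mean in PG (176 TPM, against 161 TPM in Epi), where it was also called higher (1.48 ± 0.37). SPINT1 and SPINT2, membrane-bound inhibitors of epithelial proteases, were called higher in Epi (1.12 ± 0.15 and 1.19 ± 0.16), SPINT1 also in PG, and both in BG (2.93 ± 0.15 and 1.62 ± 0.16). Their means in Epi, 65.6 and 791 TPM, lay below those in BG, 181 and 968 TPM, and SPINT1 was at 92.5 TPM in PG. Both were called lower in Tes, with SPINT1 at 0.0711 to 0.261 TPM there. WFIKKN2, which binds growth factors of the TGF-beta family, was called higher in Epi (2.97 ± 0.24). SPINT4, a name that RefSeq gives to ENSSSCG00000053262 in the same segment as WFDC10A, was at 7070 TPM in BMI Epi replicate 2 and 12338 TPM in DSE Epi replicate 3 and at most 15.1 TPM in every other library. PI3, the gene of elafin (ENSSSCG00000035053, also named by RefSeq), stayed at or below 4.95 TPM in all libraries and was not tested.

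Of 5 genes whose products join EPPIN in semen, CLU and LTF were measured. Clusterin, CLU, was called higher in Tes (2.39 ± 0.52) and in Epi (2.66 ± 0.52), where it ranged from 288 TPM to 19446 TPM in DSE replicate 1. Lactoferrin, LTF, was between 212 and 2331 TPM in Epi and between 60.3 and 316 TPM in VG, and was called higher in both (6.79 ± 0.61 and 3.69 ± 0.61). In VG its BMI libraries, at 285 to 316 TPM, lay above the DSE libraries, at 60.3 to 185 TPM. Of 7 serine proteases that SLPI or elafin inhibit or that are related to them, 5 were in the table and 2 were tested. ACR, the sperm protease acrosin, was at 114 to 493 TPM in Tes and at most 1.903 TPM elsewhere. It reached the filter only through Tes. ELANE, the gene of neutrophil elastase, stayed at or below 0.53 TPM in all libraries.

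Genes with a pattern like that of a member over the 30 libraries were named by the correlation of log2(TPM + 1), as a description. For WFDC10A these were MYO3B (r = 0.98), PATE2 (r = 0.98) and HELT (r = 0.98), and for EPPIN ADAM7 (r = 0.98), ALPL (r = 0.98) and PSRC1 (r = 0.97). PATE2, an epididymal secretory protein, had a mean of 513 TPM in Epi and ADAM7, a sperm-binding protein, 1637 TPM. For WFDC2 they were TMSB4X (r = 0.89), DLL1 (r = 0.89) and CXCL14 (r = 0.89). Of these, CXCL14, a chemokine of epithelia, had its highest mean in BG (90.7 TPM) as WFDC2 did, whereas TMSB4X (5057 TPM) and DLL1 (10.3 TPM) had theirs in Epi. For SLPI they were SCN2B (r = 0.87) and PTK7 (r = 0.86). The 30 libraries come from 5 glands and are not 30 independent points for such a correlation.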

How the data were processed

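Tissue from 5 glands of 2 breeds was sequenced by the authors. RNA-seq reads were trimmed and quantified with Salmon 1.9.0 against Ensembl transcripts merged with Iso-seq isoforms other than full or incomplete splice matches, on Sscrofa11.1, and TPM were deposited by the authors. The methods name poly-T selection and the labels rRNA depletion. Iso-seq reads were clustered, aligned (2018-07-04 release of the aligner), collapsed and classified with SQANTI3, and full-length read counts per isoform and library were deposited by the authors without normalization, with the percent of A after each 3′ end, which the authors' classification gives. Small RNA was not used.

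Transcript TPM were summed by gene, without isoforms joining genes, and used as log2(TPM + 1). The level filter kept genes reaching 1 TPM in 3 or more libraries, and fits used limma 3.58.1 (R 4.3.3), with breed and gland terms across glands and within each gland between breeds. Fits were tested on simulated data. Transcript shares used exact tests in scipy 1.17.1 (Python 3.11.15). Shared 31-base stretches were counted over 147664 transcripts. Sequences came from the RefSeq copy of Sscrofa11.1, into which all 20 chromosomes of the annotation fit. No table of protein sequences was used here.

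Members and lists were chosen with earlier results of these data known. All members are accounted for. Likeness genes are the 3 with a symbol and the highest Pearson r, of which 1 is not reported here. Of the list genes, ANOS1, SPINT3, SEMG1, SEMG2, KLK3, CTSG, CTRB1, HSD3B1, LCN5 and S100A9 were not found under these symbols. Alternatives were a pseudocount of 0.1 TPM, no filter, size factors, fusion transcripts, Ensembl transcripts alone, 1 breed alone, 1 fit for all glands, a replicate block and leaving out each library.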

Additional observations from a re-analysis of the deposited data

Results flagged for a closer look

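SLPI was not called between the breeds in any gland, but its libraries lay apart in opposite directions in 2 glands. In VG all 3 BMI libraries lay above all 3 DSE libraries, and in PG all 3 BMI libraries lay below them. Of all genes, 22.9% in VG and 31.5% in PG were without overlap. The breed differences of VG and PG were 3.54 apart on the log2(TPM + 1) scale. The difference between these 2 glands was not tested by itself, and the test over the 5 glands did not pass for SLPI (adjusted p = 0.46).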

How the results depend on the processing

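Leaving out WFDC8, the number of members called in VG was 4 and fell to 3 under size factors, to 3 with a pseudocount of 0.1 and to 2 in BMI alone, and it was 5 in DSE alone. Under these and the other settings the count was 4 to 5 in Tes (5 in the report), Epi (4) and BG (5) and 3 to 4 in PG (3). Leaving out 1 library gave 3 (without BMI VG replicate 3) to 5 (without DSE VG replicate 2) in VG, 4 to 5 in Epi and BG, 3 to 4 in PG and 5 in Tes. With WFDC8, which passed the filter only through Epi, the VG count was 3 under size factors, where WFDC8 lost its own call (-0.96), and 3 in BMI alone. Between breeds in VG the count was 0 and became 1 in one fit of all 30 libraries and 2 with the filter within the gland, which was chosen after seeing the data. In BMI alone WFDC2 lay above the other 4 glands in VG (0.66), and in DSE alone SLPI did in PG (0.51), both without a call. By full-length reads the EPPIN share, there of PB.9025.2 and not of the annotated transcript, was -19.4 percentage points, Epi minus Tes, with 6 reads in Tes. The cause of these changes was not tested. Leaving out 1 library at a time gave 0 to 1 members called between breeds in Tes and 0 to 1 in the test over 5 glands. Without DSE Tes replicate 2, WFDC2 was called between breeds in Tes (-3.08, adjusted p = 0.040). The SLPI call in BG was also lost without a filter (adjusted p = 0.085), with Ensembl transcripts alone (0.054) and within either breed. Of the values for single members other than WFDC8 under other settings, 209 kept their call, 13 lost it and 7 gained one.

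With replicate number as a block, the numbers of members called by gland, without WFDC8, were 5 in Tes, 4 in Epi, 4 in VG, 3 in PG and 5 in BG, as without the block, and 0 between breeds in each gland. The block changed no other call. The sources do not say that numbers pair samples, and over 60 pairs of same-numbered libraries of a breed the correlation of deviations had a median of 0.041, with 21 over 0.1 and the lowest at -0.30, against a median of -0.026, with 18 over 0.1, in 120 pairs with different numbers. TPM give no read counts, and counts were not worked out from the library totals that the authors state. Small differences at low levels were therefore not weighed against counting error. Iso-seq had 1 library per group.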
